A study of Mus musculus with 42 samples.

Results

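The 32 genes described here encode the enzymes of glycolysis, the carriers of glucose and lactate, and the hypoxia factor Hif1a with a group of its well-known targets. They were listed by gene symbol, by a rule that sets no threshold on a measured value, although earlier results of these data were known when the list was drawn up. All 32 were found among the 55471 entries of a count table from mouse hippocampal neurons. The filter on low counts was passed by 31 of them and not by the lactate exporter Slc16a3, which had 129 counts over 18 libraries. Aldoa was listed under 2 Ensembl identifiers, of which the one with the higher total was used.

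Primary hippocampal neurons of NMRI mouse embryos (day 16) were plated with horse serum and then kept in a maintenance medium with B27, glucose and pyruvate. At 6 to 7 days in vitro the control group received vehicle (n = 6) and the BDNF group received brain-derived neurotrophic factor, 50 ng/ml for 20 min (n = 6). Another pair of groups was exposed for 24 h to small extracellular vesicles (EVs) released by cortical neurons. The donors had been given vehicle (control EV, n = 3) or BDNF at 50 ng/ml for 20 min (BDNF EV, n = 3), and their vesicles were isolated 16 h later. The labels number the libraries in 6 sets, with set 1 in batch a, sets 2 and 3 in batch b, sets 4 and 5 in batch c and set 6 in batch d. EV libraries exist for sets 1 to 3. What a batch is, how long after BDNF the hippocampal cells were lysed, and whether the sets were separate cultures is not stated, so p-values reflect only how far these libraries spread, and that spread can be technical.

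Glycolysis splits glucose into pyruvate in the cytosol and yields ATP without oxygen. Lactate dehydrogenase interconverts pyruvate and lactate, and monocarboxylate carriers move lactate across membranes, in brain also between astrocytes and neurons. The alpha subunit of the transcription factor HIF1 is degraded while oxygen is present, and when oxygen is low HIF1 binds short hypoxia response elements and induces glucose carriers, most glycolytic enzymes, Vegfa and other targets. Neurons depend mainly on the glucose carrier Slc2a3 and use Eno2, an enolase that marks them.

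Each library held 16274937 to 36835780 counts, of which 0.317% to 0.399% fell on the 32 genes. Neuron markers summed to 6812 to 8303 CPM (counts scaled to a common library total, with library sizes scaled by TMM factors), astrocyte markers to 2073 to 2824, fibroblast markers to 492 to 798, endothelial and mural markers to 49.8 to 109.5 and microglia markers to 21.1 to 26.8, with 5 of 10 microglia markers at or under 3 counts per library. Oligodendrocyte lineage markers summed to 928 to 1093 CPM in controls and 1021 to 1271 after BDNF. Of the tested markers, after BDNF 4 rose and 2 fell of 10 for neurons, 2 rose and 3 fell of 9 for astrocytes, and 3 rose and 2 fell of 10 for the oligodendrocyte lineage. Of all tested genes 7.5% rose and 6.25% fell. Among 15 activity and BDNF response genes 4 rose and 0 fell, led by Arc (1.09) and Nptx2 (1.08, log2 fold change). The median log2 fold change of the 15 was nonetheless slightly negative, −0.08. The summed level of those 15 genes varied widely within groups, from 336 to 1327 CPM in controls, 453 to 1608 after BDNF, 215 to 802 with control EV and 213 to 271 with BDNF EV. The part of cell makeup and of this activity level in the results below was not tested, and in such bulk samples fewer cells of a type and less RNA per cell cannot be told apart.

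After direct BDNF, transcripts of 6 enzymes from aldolase down to lactate dehydrogenase were higher by up to 1.25-fold, and 3 of the phosphofructokinase step were at 0.872-fold to 0.894-fold of control. In the quasi-likelihood fit of edgeR, with p-values adjusted over 17609 genes by the Benjamini-Hochberg method, Aldoa, Pgk1, Eno1, Eno2, Pkm and Ldhb were higher and Pfkl, Pfkfb2 and Pfkfb3 were lower. That is 6 of 31 higher where 7.5% of all tested genes were higher, and 3 of 31 lower where 6.25% of all were lower. In either direction 29% of the tested members passed, against 13.8% of all genes. Their median log2 fold change was 0.04 against −0.00174 for all genes, and their median size of change was 0.08 against 0.09. Fitted without the batch, the calls of Aldoa, Pgk1, Pkm, Ldhb, Pfkfb2 and Pfkfb3 were lost (edgeR adjusted p from 0.0697 to 0.149). With batches a and b alone those of Pfkl, Pfkfb2, Pgk1, Pkm and Ldhb were lost (0.0512 to 0.225), and without batch c those of Pfkl, Pfkfb2 and Pgk1 (0.0567 to 0.122).

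**Figure D1:**
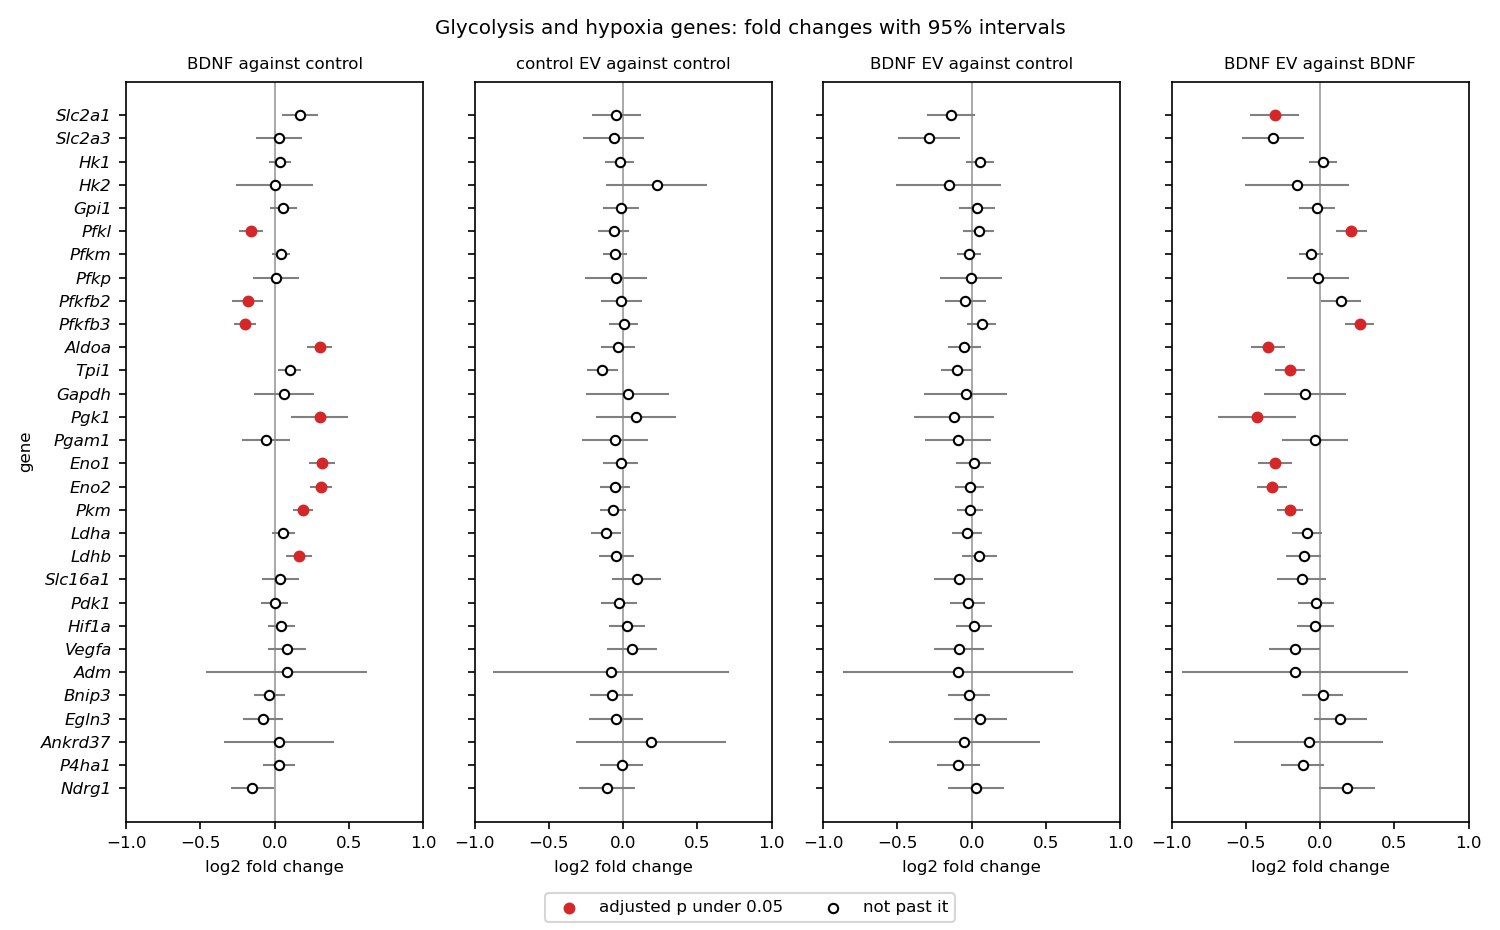
Log2 fold change (horizontal axis) of 30 genes (vertical axis) in 4 of the comparisons, with 95% intervals as bars and filled points where the adjusted p is under 0.05. Car9, with wide intervals, and the untested Slc16a3 are left out. In the BDNF panel the filled points right of 0 are Aldoa, Pgk1, Eno1, Eno2, Pkm and Ldhb and those left of 0 are Pfkl, Pfkfb2 and Pfkfb3, while the panels of EV against control hold no filled point.

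Glucose enters through facilitative carriers. Slc2a1 (GLUT1, chromosome 4, 119108745 to 119137330, GRCm38.p6), the carrier of the blood-brain barrier and of glia, ranged from 17.4 to 27.9 CPM in controls with a median of 25.2, and from 20.6 to 34.1 with a median of 26.5 after BDNF. The groups overlapped, and the log2 difference, 0.17 ± 0.06 (SE), missed the threshold at an edgeR adjusted p of 0.0594. It passed with no filter on low counts (edgeR adjusted p = 0.0331) and without control 3 or BDNF 2 (0.0236 and 0.0137). Slc2a3 (GLUT3, chromosome 6, 122727809 to 122802363), the neuronal carrier, stood at 149 to 223 CPM in controls (median 174) and 149 to 259.7 after BDNF (median 159.9). Its difference was 0.03 (95% interval −0.13 to 0.18).

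Hexokinases trap glucose in the cell as glucose 6-phosphate. Hk1, the main form of brain, averaged 293 ± 19.7 CPM in controls and 299.9 ± 4.38 after BDNF (SD, n = 6 each), and the inducible Hk2 7.06 ± 1.37 and 7.01 ± 0.95. The log2 intervals were −0.04 to 0.11 for Hk1 and −0.26 to 0.26 for Hk2. The isomerase Gpi1, which makes fructose 6-phosphate, differed by 0.06 (95% interval −0.03 to 0.15).

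Phosphofructokinase commits the sugar to glycolysis and has 3 types of subunit, of which the liver type fell. Pfkl, the liver type (chromosome 10, 77986947 to 78009807), ranged from 76.8 to 86.1 CPM in controls with a median of 82.7, and from 70.1 to 78.8 after BDNF with a median of 72.5. It was lower after BDNF in every one of the 6 sets, and the groups overlapped only through the lowest control and the highest BDNF library. On the log2 scale BDNF minus control was −0.16 ± 0.04 (SE) at an edgeR adjusted p of 0.00559, with −0.16 in batch a, −0.14 in b, −0.25 in c and −0.04 in d. The muscle type Pfkm differed by 0.04 (95% interval −0.02 to 0.10) and the platelet type Pfkp by 0.01 (−0.15 to 0.17).

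The bifunctional enzymes Pfkfb2 and Pfkfb3 set the level of fructose 2,6-bisphosphate, the strongest activator of phosphofructokinase, and both were lower after BDNF. Pfkfb3 (chromosome 2, 11471430 to 11554071), the form with the highest ratio of kinase to phosphatase activity and itself a HIF1 target, ranged from 84.7 to 106 CPM in controls (median 92.0) and 74.1 to 94.7 after BDNF (median 78.8). It was lower in all 6 sets, by 0.15 to 0.27 on the log2 scale, while levels overlapped between sets. The fitted log2 fold change, −0.20 ± 0.04 (SE), had an edgeR adjusted p of 0.000496. Pfkfb2 (chromosome 1, 130689043 to 130729253), the heart type, ranged from 39.9 to 48.7 CPM in controls (median 41.9) and 33.5 to 44.3 after BDNF (median 37.4), with set 3 the one set in which it was not lower. Its log2 fold change was −0.18 ± 0.05 (edgeR adjusted p = 0.0159), and the call was lost without control 6, BDNF 4 or BDNF 6 (highest edgeR adjusted p = 0.0721).

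Aldolase splits the 6-carbon sugar into trioses. Aldoa (chromosome 7, 126795234 to 126800994), the main aldolase of neurons, stood at 284 to 425 CPM in controls with a median of 329, and at 353 to 507.5 after BDNF with a median of 411. It was higher in all 6 sets by 0.15 to 0.52 (log2), although the 2 controls of batch c, at 394.5 and 425 CPM, lay inside the range of the BDNF group. The rise was 1.23-fold, or 0.30 ± 0.04 on the log2 scale (SE), with an edgeR adjusted p of 1.35e-05. The isoform Aldoc, not a member, averaged 331 ± 37.7 CPM in controls and 338 ± 31.0 after BDNF (SD, n = 6 each). Triosephosphate isomerase, Tpi1, ranged from 131 to 157 CPM in controls and 133 to 167 after BDNF, and its log2 fold change of 0.10 ± 0.04 missed the threshold (edgeR adjusted p = 0.0714; 0.0224 without BDNF 3 and 0.032 without BDNF 5).

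The lower steps gain ATP and NADH. Eno2 (chromosome 6, 124760053 to 124769673), the neuronal form, ranged from 166 to 213 CPM in controls (median 195) and from 224 to 246 after BDNF (median 242). The highest control lay below the lowest BDNF library, and Eno2 was the one member whose groups did not overlap, where 3.01% of all tested genes had groups apart. The rise was 0.31 ± 0.04 on the log2 scale (SE) at an edgeR adjusted p of 1.9e-06, with 0.26 in batch a, 0.40 in b, 0.19 in c and 0.43 in d. Eno1 (chromosome 4, 150236708 to 150248879), the ubiquitous form, ranged from 25.6 to 32.1 CPM (median 28.3) and 31.7 to 41.9 (median 35.6), and its log2 fold change was 0.32 ± 0.04 (edgeR adjusted p = 9.84e-06). It was higher in all 6 sets, by 0.22 to 0.38, and the groups overlapped in that the highest control lay above the 2 lowest BDNF libraries.

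Pgk1 and Pkm are the 2 enzymes that make ATP directly from glycolytic intermediates. Pkm (chromosome 9, 59656576 to 59679372), pyruvate kinase, ranged from 340.2 to 415 CPM in controls (median 357) and 370.3 to 481 after BDNF (median 411). It was higher in every set, by 0.09 to 0.29, with overlapping groups, and the fit gave 0.19 ± 0.03 (log2, SE) at an edgeR adjusted p of 0.000196. Pgk1 (chromosome X, 106187100 to 106203699), phosphoglycerate kinase, was counted at 4.78 to 6.84 CPM in controls (median 4.91) and 5.09 to 7.53 after BDNF (median 6.92). It too was higher in all 6 sets, the groups overlapping, with a log2 fold change of 0.30 ± 0.09 (edgeR adjusted p = 0.0295), but the call was lost without any one of controls 1, 2 and 4 or BDNF libraries 1, 2 and 4 (highest edgeR adjusted p = 0.0841). Gapdh, which makes the NADH of glycolysis, differed by 0.06 (95% interval −0.14 to 0.27) and the mutase Pgam1 by −0.06 (−0.22 to 0.10). For Gapdh the batches went opposite ways, with −0.24 in a and −0.14 in b against 0.34 in c and 0.20 in d. Gapdh, Pgk1, Pgam1, Aldoa, Ldha and Eno1 have copies or pseudogenes of near-identical sequence, and how reads that match several places were counted is not given in the sources used here, so their levels are uncertain. The copy Eno1b held 2569 counts over all libraries against 12264 for Eno1, and Gapdh-ps14 held 134 against 2707 for Gapdh.

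**Figure D2:**
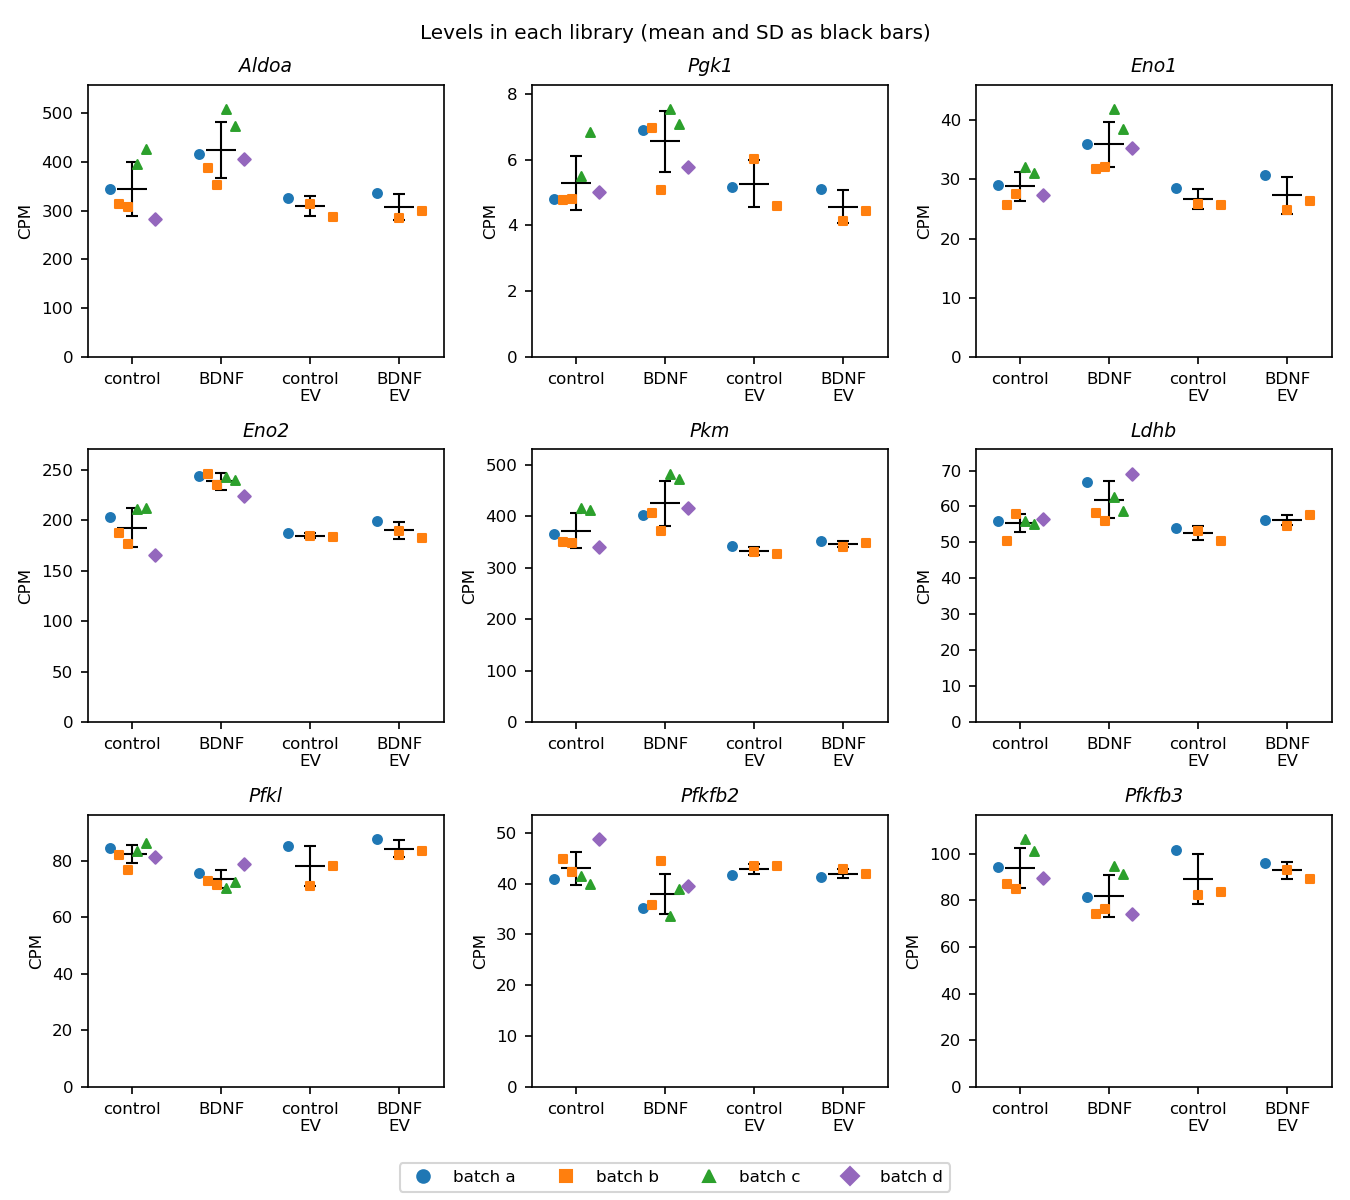
Level in each library (CPM, vertical axis from 0) of the 9 genes that differed between BDNF and control, by group (horizontal axis), with the batch as colour and shape and the mean and SD as black bars (n = 6, 6, 3 and 3). Eno2 is the gene whose BDNF libraries all lie above all controls, and its 6 EV libraries lie inside the control range.

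Lactate dehydrogenase is built from a muscle-type chain, Ldha, and a heart-type chain, Ldhb, that favours use of lactate. Ldhb (chromosome 6, 142490249 to 142507957) ranged from 50.5 to 57.9 CPM in controls (median 56.0) and 56.1 to 68.96 after BDNF (median 60.8). The groups overlapped and it was higher in 5 of 6 sets, set 3 being the exception, and its rise of 0.16 ± 0.04 (log2, SE), with an edgeR adjusted p of 0.0122, lost the threshold without control 6 or BDNF 6 (highest edgeR adjusted p = 0.0619). Ldha, a HIF1 target, averaged 247 ± 21.0 CPM in controls and 257 ± 27.4 after BDNF (SD, n = 6 each), a difference of 0.06 (95% interval −0.02 to 0.13). The carrier Slc16a1 (MCT1) differed by 0.04 (−0.09 to 0.16). Slc16a3 (MCT4), the export carrier of glycolytic cells, stood at 0.14 to 0.53 CPM over all libraries and was not tested. Pdk1, the HIF1-induced kinase that closes pyruvate dehydrogenase, averaged 55.3 ± 3.69 and 55.3 ± 3.42 CPM, a difference of 0.00 (−0.09 to 0.09).

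Among the hypoxia genes no member passed for BDNF against control. Hif1a, whose protein is controlled mainly by degradation, averaged 121 ± 7.27 CPM in controls and 125 ± 6.63 after BDNF (SD, n = 6 each), a log2 difference of 0.05 (95% interval −0.05 to 0.14). The growth factor Vegfa differed by 0.08 (−0.04 to 0.21), the mitophagy receptor Bnip3 by −0.04 (−0.14 to 0.07), the prolyl hydroxylase Egln3 by −0.08 (−0.21 to 0.06) and the collagen prolyl hydroxylase P4ha1 by 0.03 (−0.08 to 0.14). Ndrg1, a stress and differentiation gene, was at −0.15 ± 0.07 (edgeR adjusted p = 0.167), and passed with no filter on low counts (0.0146) and without BDNF 2 (0.013). Egln3 passed with batches a and b alone (−0.26, edgeR adjusted p = 0.0463). The peptide gene Adm and the ankyrin gene Ankrd37 stood at 0.347 to 1.796 and 0.74 to 1.52 CPM over all libraries. Their 95% intervals were wide, −0.46 to 0.62 and −0.34 to 0.40 (log2), so changes within those ranges are not excluded. The carbonic anhydrase Car9, with 101 counts in all, was at 0 to 0.49 CPM in controls and 0.09 to 0.92 after BDNF, with a fitted log2 difference of 0.97 ± 0.40 (edgeR adjusted p = 0.115) that rests on few counts.

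Promoter sequence was examined since HIF1 binds the cores ACGTG and GCGTG, searched on both strands, that is also as CACGT and CACGC, where a palindromic CACGTG holds overlapping matches. In the 250 bases before the annotated start (RefSeq, GRCm38.p6), 27 of the 30 matched members (90%) had a core in at least 1 window, against 41.5% of all 27025 genes. By window the share was 80% of 45 for the members and 38.6% of 32851 for all. A core was present for 5 of the 6 members higher after BDNF, 3 of the 3 lower and 18 of the 20 that did not pass, as well as for the untested Slc16a3. The windows of the members that passed and have 1 annotated start are printed to set promoters with and without a core side by side, 5′ to 3′ on the gene's strand, with the cores in capitals. Pgk1 (chrX:106186850-106187099, plus strand), a classic HIF1 target, has 2 matches, Ldhb (chr6:142507958-142508207, minus strand) and Pfkl (chr10:78009808-78010057, minus strand) have 1 each, and Eno2 (chr6:124769674-124769923, minus strand), with the smallest adjusted p of the members, has 0 in this window. A match is a description of letters and not a bound site. The members were picked in part as known HIF1 targets, and the comparison takes all annotated genes, expressed or not. Every core searched also holds the letters CG, and the base makeup of the windows was not matched. The larger share among the members can follow from these choices and was not tested.
Pgk1: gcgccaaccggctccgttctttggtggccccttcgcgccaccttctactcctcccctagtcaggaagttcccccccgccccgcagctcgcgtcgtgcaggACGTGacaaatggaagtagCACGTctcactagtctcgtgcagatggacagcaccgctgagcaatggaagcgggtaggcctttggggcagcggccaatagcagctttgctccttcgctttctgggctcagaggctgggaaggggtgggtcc
Ldhb: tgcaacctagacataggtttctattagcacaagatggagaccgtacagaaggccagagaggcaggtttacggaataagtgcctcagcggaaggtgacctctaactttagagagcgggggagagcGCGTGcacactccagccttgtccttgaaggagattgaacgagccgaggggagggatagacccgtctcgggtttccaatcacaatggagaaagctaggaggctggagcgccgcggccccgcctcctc
Pfkl: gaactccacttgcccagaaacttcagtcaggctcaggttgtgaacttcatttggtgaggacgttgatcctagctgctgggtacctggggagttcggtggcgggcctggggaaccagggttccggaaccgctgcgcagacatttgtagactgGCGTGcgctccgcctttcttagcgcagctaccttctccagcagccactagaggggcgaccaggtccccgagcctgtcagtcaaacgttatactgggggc
Eno2: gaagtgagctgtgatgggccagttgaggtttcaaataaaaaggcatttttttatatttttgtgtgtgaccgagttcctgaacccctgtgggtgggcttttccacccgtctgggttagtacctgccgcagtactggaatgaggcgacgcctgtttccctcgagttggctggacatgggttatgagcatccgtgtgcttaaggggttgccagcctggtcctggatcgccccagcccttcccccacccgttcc

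Ratios between members within a library do not depend on library scaling. They were chosen after the values were seen and carry no test. The log2 ratio of Eno2 to Pfkl counts ran from 1.03 to 1.34 in controls and from 1.51 to 1.79 after BDNF, so the groups were apart, and it was higher in 6 of 6 sets by 0.42 to 0.56. Aldoa over Pfkfb3 likewise ran from 1.66 to 2.07 and from 2.21 to 2.45. Between isoforms of 1 step, Pfkl over Pfkm was lower after BDNF in all 6 sets (mean difference −0.20), Ldhb over Ldha higher in 6 of 6 sets (0.10) and Slc2a1 over Slc2a3 higher in 6 of 6 (0.13). Eno2 over Eno1 was higher in 3 of 6 sets (−0.00327), Hk2 over Hk1 in 3 of 6 (−0.04) and Pfkfb3 over Pfkfb2 in 3 of 6 (−0.00994). Pfkp over Pfkm was higher in 1 of 6 sets, with differences from −0.34 to 0.37 (mean −0.03). None of those pairs shifted in a common direction.

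**Figure D3:**
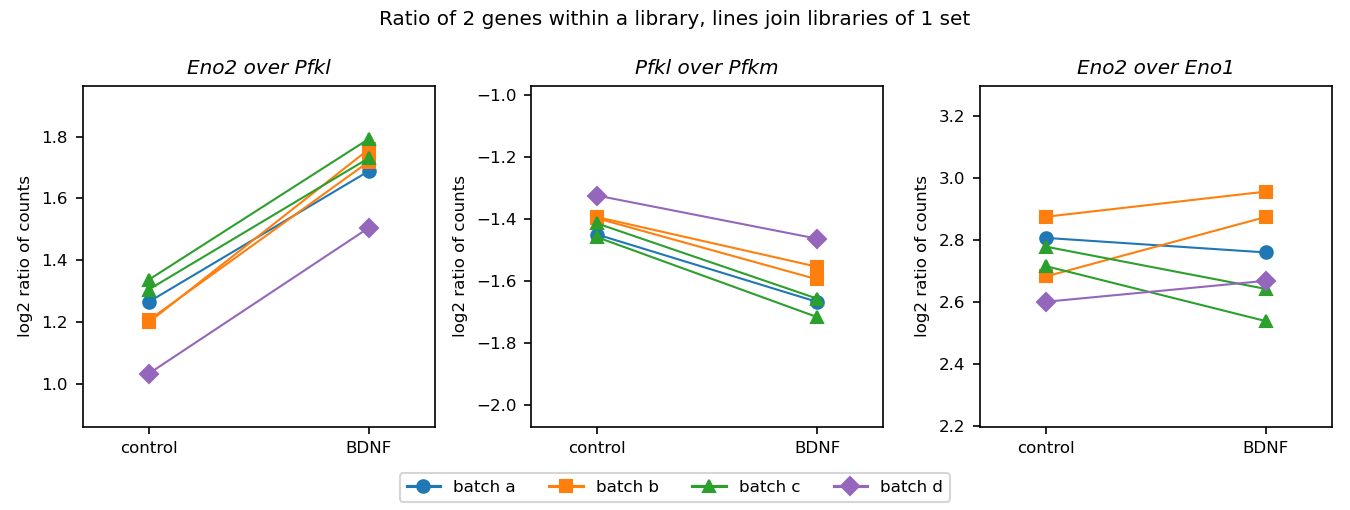
Log2 ratio of 2 genes' counts within a library (vertical axis, 3 panels of equal span) for control and BDNF (horizontal axis), with a line joining the libraries of each of the 6 sets and colour for the batch. All 6 lines rise for Eno2 over Pfkl and all 6 fall for Pfkl over Pfkm, while 3 of 6 rise for Eno2 over Eno1.

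Several members stood apart in batch c, among them the glucose carrier Slc2a3 and the hypoxia target P4ha1. In controls Slc2a3 stood at 222 and 223 CPM in the 2 libraries of batch c and at 149 to 178 in the other 4, and after BDNF at 250.2 and 259.7 against 149 to 162. P4ha1 stood at 52.2 and 57.0 CPM in the batch c controls and 37.5 to 44.2 in the others, and at 59.1 and 63.1 against 40.7 or less after BDNF. For both genes the batch c libraries were the 2 highest in either group. The same held for Gpi1, Pfkfb3, Aldoa, Pgk1, Pgam1, Eno1, Pkm, Ldha and, at few counts, Car9. Aldoa, for one, stood at 394.5 and 425 CPM in the batch c controls against 344 or less in the others. After BDNF it stood at 507.5 and 473 against 417 or less. Fibroblast markers summed to 723 and 664 CPM in the batch c controls against 645 or less in the others, and to 798 and 790.4 against 618 or less after BDNF. Endothelial and mural markers summed to 92.0 and 86.4 CPM against 83.0 or less in controls, and to 102 and 109.5 against 80.9 or less after BDNF, so for both lists the batch c libraries were the 2 highest in either group. The activity genes summed to 886 and 1058 CPM in the batch c controls, below the 1327 of control 3, and to 1350 and 1608 in its BDNF libraries, the 2 highest sums of that group. The part of these sums in the levels of Slc2a3, P4ha1 and the other members named was not tested.

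Whether the BDNF effect itself differed between batches c and d and batches a and b was tested as an interaction in the 12 control and BDNF libraries. Of the 30 members tested there, without Car9 and Slc16a3, none passed by edgeR (34 of 16780 genes did). An unadjusted p under 0.05 was found for 8 of the 30, a larger share than the 13.4% of all genes. Nearest was Vegfa, with a BDNF effect of −0.17 in batch a, −0.03 in b, 0.23 in c and 0.26 in d (difference 0.31 ± 0.09, SE, edgeR adjusted p = 0.144). Egln3 was at −0.35 and −0.22 in batches a and b and at 0.11 and 0.08 in c and d (difference 0.36 ± 0.11, edgeR adjusted p = 0.16), and Slc2a1 at 0.11 and −0.07 and at 0.29 and 0.39 (difference 0.32 ± 0.10, edgeR adjusted p = 0.16). Gapdh had the largest difference of the 30, 0.47 ± 0.17 (edgeR adjusted p = 0.231), being lower after BDNF in a and b and higher in c and d. With no filter on low counts, Vegfa (difference 0.30, edgeR adjusted p = 0.0171) and Pfkp (−0.28, edgeR adjusted p = 0.0271) passed. The 9 genes called for BDNF kept 1 direction in all 4 batches. They were called from these same libraries, so this is a description and adds no support.

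**Figure D4:**
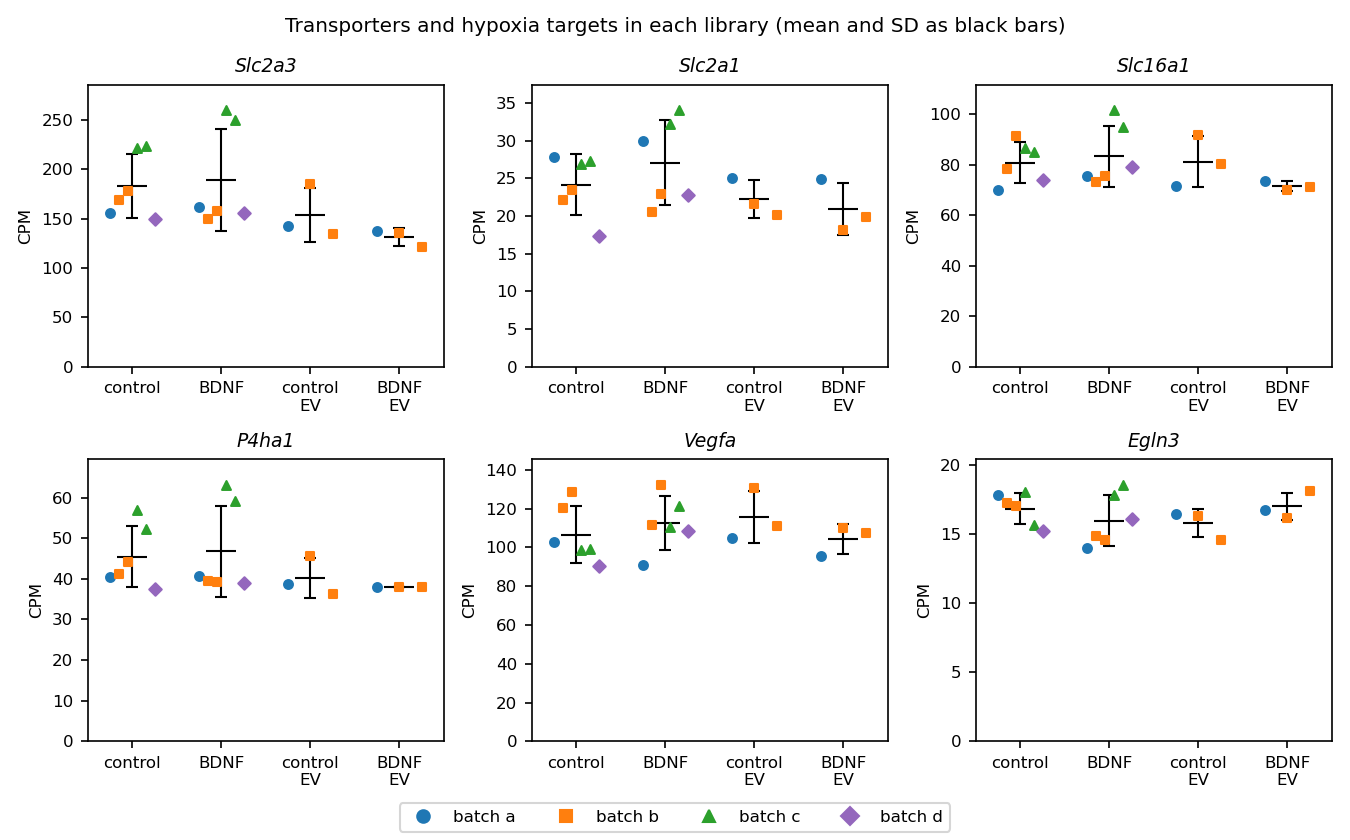
Level in each library (CPM, vertical axis from 0) of 3 carriers and 3 hypoxia targets by group (horizontal axis), with the batch as colour and shape and the mean and SD as black bars (n = 6, 6, 3 and 3). Batch c holds the highest Slc2a3 and P4ha1 levels in control and BDNF, and the 3 BDNF EV libraries lie below all controls for Slc2a3.

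Vesicles were added to ask whether they carry the effect of BDNF to other neurons. With control EV 0 of 31 members passed against control by edgeR (2 at an unadjusted p under 0.05, 0 by DESeq2), where 0.0284% of all genes passed and 6.14% had an unadjusted p under 0.05. The 2 were Tpi1 and Ldha, a share near that of all genes. Tpi1 stood at 127, 127 and 119 CPM with control EV, below the 131 to 157 of the 6 controls, and Ldha at 210.4, 209.9 and 219 against 228 to 274. Their differences were −0.14 (95% interval −0.24 to −0.04) and −0.12 (−0.22 to −0.02), with edgeR adjusted p of 0.776 and 0.787. Since controls of batches c and d enter that range, the within-set differences are also given, −0.20 to −0.06 for Tpi1 and −0.18 to −0.10 for Ldha, lower in 3 of 3 sets each. The share of all genes with groups apart is not given for the comparisons with EV groups. There, here and below, groups that lie apart are a description only.

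With BDNF EV 0 of 31 members passed against control by edgeR (3 at an unadjusted p under 0.05, 0 by DESeq2), where 0.0227% of all genes passed and 7.25% had an unadjusted p under 0.05. The smallest adjusted p (0.455) was that of Car9, at 0.34, 0.08 and 0.47 CPM against 0.09, 0 and 0.18 in the controls of the same sets. It was higher in 3 of 3 sets, and its fitted log2 difference of 1.88 ± 0.61 (SE) rests on few counts. Next came the neuronal glucose carrier Slc2a3, at 137, 135 and 121 CPM with BDNF EV against 155, 169 and 178 in the controls of the same sets. All 3 lay below every control, and the fitted log2 difference was −0.29 ± 0.10 (SE) with an edgeR adjusted p of 0.49. It passed with no filter on low counts (−0.28, edgeR adjusted p = 0.000618) and with the 2 groups fitted alone (−0.35, edgeR adjusted p = 0.00917), and by DESeq2 the adjusted p was 0.226.

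None of the 9 genes that differed after direct BDNF passed for BDNF EV against control (edgeR adjusted p from 0.821 to 0.984). Eno2 stood at 199, 189 and 182 CPM with BDNF EV and at 187, 184 and 183 with control EV, inside the control range. For BDNF EV its 95% interval against control was −0.11 to 0.09, that of Aldoa −0.16 to 0.06, Eno1 −0.10 to 0.13 and Pkm −0.10 to 0.08 (log2). Pgk1, with few counts, had a wider interval of −0.39 to 0.15, and Ldhb one of −0.07 to 0.17. Pfkl stood at 87.5, 81.8 and 83.3 CPM and Pfkfb3 at 96.2, 93.1 and 89.2 with BDNF EV, above all BDNF libraries for Pfkl and overlapping them for Pfkfb3. Their intervals against control were −0.06 to 0.15 and −0.03 to 0.17, and that of Pfkfb2 was −0.18 to 0.09.

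Set directly against BDNF, BDNF EV libraries had 2 members higher, where 3.36% of all genes were, and 7 lower, where 5% of all genes were, and 29% of members passed in either direction against 8.36% of all. This comparison shares its BDNF libraries with BDNF against control, so its values stand beside the earlier ones and do not add support to them. The exposure was 24 h for vesicles and 20 min for BDNF, so agent and time cannot be told apart. Aldoa differed by −0.35 ± 0.05, Pgk1 by −0.42 ± 0.13, Eno1 by −0.30 ± 0.06, Eno2 by −0.33 ± 0.05 and Pkm by −0.20 ± 0.04 (log2, SE, edgeR adjusted p between 9.09e-05 and 0.0387). Pfkl was at 0.21 ± 0.05 and Pfkfb3 at 0.27 ± 0.05 (edgeR adjusted p = 0.00973 and 0.000705). Beyond these, the triose enzyme Tpi1 was lower, at −0.20 ± 0.05 (log2, edgeR adjusted p = 0.0101), at 133, 125 and 125 CPM against 133 to 167 with BDNF. Slc2a1 was lower too, at −0.31 ± 0.08 (edgeR adjusted p = 0.0156), with 24.9, 18.2 and 19.9 CPM against 20.6 to 34.1. It lost the threshold without BDNF EV 1 or 2 (highest edgeR adjusted p = 0.122), without the batch term (0.249), with batches a and b alone (0.0674) and without batch c (0.0505), and Pfkfb3 lost it without the batch term (0.278). The calls of Pgk1, Pfkl and Tpi1 also rested on single libraries, with edgeR adjusted p up to 0.203, 0.0521 and 0.0649 when 1 was left out, for Pfkl without BDNF EV 3 and for Tpi1 without BDNF EV 1. For Pgk1 the call was lost without any one of controls 2 and 4, BDNF 1, 2 and 4 and BDNF EV 1, 2 and 3, and without batch c (0.0529). Slc2a3 lay below all BDNF libraries with BDNF EV, at −0.32 ± 0.10 (edgeR adjusted p = 0.0607), and passed by DESeq2 (0.00924), with no filter (4.55e-06), with the 2 groups alone (0.00127) and without BDNF 2, control EV 2 or control EV 3 (edgeR adjusted p = 0.0377, 0.00267 and 0.0264). Beside these genes, the BDNF EV libraries had activity gene sums of 213 to 271 CPM against 453 to 1608 with BDNF, and oligodendrocyte lineage sums of 912 to 953 against 1021 to 1271, neither range overlapping, and their part was not tested.

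Between the vesicle groups, which asks what BDNF treatment of the donors added, 0 of 31 members passed by edgeR (3 at an unadjusted p under 0.05, 0 by DESeq2), as did 0% of all genes (8.38% at an unadjusted p under 0.05). The 3 members were Hk2 (−0.38, 95% interval −0.75 to −0.01), Slc2a3 (−0.23, −0.45 to −0.00334) and Slc16a1 (−0.18, −0.36 to −0.000306). Control EV 2 held the highest level of its group for each, with 11.7 CPM of Hk2 against 6.19 and 7.29, 185 of Slc2a3 against 142 and 134, and 91.7 of Slc16a1 against 71.5 and 80.3. That library also had the highest activity gene sum of the EV libraries, 802 CPM against 215 and 397 for the other control EV libraries, whose part was not tested. Without it the difference was −0.12 for Hk2, −0.07 for Slc2a3 and −0.10 for Slc16a1.

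Further genes around the pathway were read from lists chosen with earlier results known. Of all tested genes 7.5% rose and 6.25% fell after BDNF, and 26.7% had an unadjusted p under 0.05. In BDNF EV against BDNF 3.36% were higher and 5% lower, and 21.9% had an unadjusted p under 0.05. Of 23 other glycolysis and glucose handling genes 0 rose and 4 fell after BDNF by edgeR (0 higher and 5 lower at an unadjusted p under 0.05), among them Hkdc1, a weak hexokinase at 1.03 ± 0.13 CPM in controls and 0.65 ± 0.23 after BDNF (−0.67, edgeR adjusted p = 0.0252), and Ldhd, the D-lactate dehydrogenase of mitochondria, at 71.9 ± 2.46 and 57.6 ± 3.16 CPM (SD, n = 6; −0.32, edgeR adjusted p = 2.06e-06). Against BDNF, BDNF EV had 3 of the 23 higher and 0 lower (3 and 0 at an unadjusted p under 0.05), led by Tigar, a fructose 2,6-bisphosphatase (0.32), and Ldhd (0.31). Of 10 genes of the pyruvate dehydrogenase complex and its regulators 2 rose after BDNF, the E2 subunit Dlat by 0.13 and the kinase Pdk2 by 0.14, and Dlat was lower, at −0.22, in BDNF EV against BDNF. Of 12 glycogen genes Phkb, a subunit of phosphorylase kinase, rose by 0.15 after BDNF and was at −0.24 in BDNF EV against BDNF. Of 8 pentose phosphate genes 0 passed by edgeR in either comparison (3 and 1 at an unadjusted p under 0.05), with medians of −0.00703 and 0.01.

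Of 11 regulators of the HIF pathway 1 passed after BDNF, Cited2, which competes with HIF1 for the coactivator p300/CBP, at 51.5 ± 4.50 CPM in controls and 59.2 ± 4.68 after BDNF (SD, n = 6; 0.20, edgeR adjusted p = 0.0144), and it was at −0.29 in BDNF EV against BDNF. Of 28 other tested hypoxia targets 2 rose and 2 fell after BDNF. Angptl4, a lipoprotein lipase inhibitor, fell by 0.51 ± 0.17 from 2.37 to 1.62 CPM (edgeR adjusted p = 0.0496). BDNF EV against BDNF had 0 of the 28 higher and 3 lower (5 and 6 at an unadjusted p under 0.05), among them the lysyl hydroxylase Plod1 (−0.27). In the 3 comparisons among EV and control groups 0 of the 92 tested genes of these 6 lists passed by edgeR, with 6 at an unadjusted p under 0.05 for control EV against control, 10 for BDNF EV against control and 9 for BDNF EV against control EV. Among all genes the shares at an unadjusted p under 0.05 were 6.14%, 7.25% and 8.38%, in the same order.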

How the data were processed

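RNA of 18 hippocampal libraries was sequenced with the TruSeq RNA kit v2 (500 ng input, 50 bp single reads), which does not mark strand. The authors deposited raw read counts per Ensembl gene, not normalised. CASAVA 1.8 and 1.8.2, cutadapt 1.8.1, DESeq2 and the mm10 build are named per the submitters' processing notes, and no source used here names the aligner, the counter or the annotation. The small RNA table was not used.

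Counts were tested with edgeR 4.0.16 (R 4.3.3, limma 3.58.1), by the robust quasi-likelihood test with TMM normalisation, the expression filter at a minimum count of 10, the batch as covariate and all 18 libraries in 1 fit. Adjusted p under 0.05 over 17609 genes was the threshold, and the script was tested on simulated data. Same-set libraries deviated together from their group means in every comparison (correlations from 0.185 to 0.577). Libraries of a set share a batch, and the deviations were not adjusted for it. Whether the sets are paired beyond the batch was thus not tested. Library profiles correlated at 0.979 to 0.995 and no columns were identical. Alternatives were other size factors, no filter, DESeq2 1.42.0, no batch term, a replicate block, fewer groups or batches, and each library left out. Positions, symbols and promoters come from RefSeq GRCm38.p6. Symbols were matched for all but 327 entries.

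The members and lists were chosen with earlier results of these data known, though no measured value enters the rule for the members. All 32 members are named, those past the threshold in a comparison with values by library. Aldoc is named as an isoform of Aldoa, and from each further list the 2 called genes with the largest change are named. A gene that this rule reaches in the list of other hypoxia targets is not reported here. Intervals cover the spread between libraries, and 0 table columns were left without a sample.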

Additional observations from a re-analysis of the deposited data

Results flagged for a closer look

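Pgk1 in control 5 stood at 6.84 CPM, far from the next control at 5.49 CPM relative to the range of the 6 controls. Such a gap arises by chance in about 1 of 20 groups, and among the 32 members it was the one such gap in the control and BDNF groups of 6, while the EV groups of 3 were not examined in this way. Without control 5 the BDNF call of Pgk1 was kept.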

How the results depend on the processing

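The libraries have no stated cultures, EV groups hold 3 libraries in batches a and b, and genes of a few CPM such as Pgk1 rest on 79 or more counts a library. Of the 9 members called for BDNF against control, all 9 kept their call with other size factors, with no filter, with DESeq2, with the 2 groups alone and with the replicate block, and direction was kept under all settings run. The replicate block, which fits the set number in place of the batch, gave 6 higher and 3 lower for BDNF against control and 2 higher and 7 lower for BDNF EV against BDNF, and it changed no call.

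Without the batch term 2 members were higher and 1 lower after BDNF, and 1 was higher in BDNF EV against BDNF. With batches a and b alone 3 were higher after BDNF and 2 lower (Pfkfb3 and Egln3). Without batch c, a choice made after seeing the data, 5 were higher and 1 lower (Pfkfb3). With no filter, and with the 2 groups alone, 1 member (Slc2a3) was lower in BDNF EV against control. With no filter 2 members passed the interaction of BDNF with batch. The cause was not tested in these cases. By DESeq2 the Pgk1 call for BDNF EV against BDNF lay at the threshold (adjusted p = 0.049963). Eno1 and Eno2 kept their BDNF call in all 26 alternatives. Vegfa (−0.17, edgeR adjusted p = 0.039) and Ndrg1 (0.18, 0.0347) passed for BDNF EV against BDNF with no filter, and Pfkfb2 (0.22, 0.0238) without BDNF 3.

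Leaving out 1 library in turn, the members called in BDNF EV against BDNF were 1 to 3 higher and 4 to 8 lower, with 1 higher without BDNF EV 3 and 4 lower without BDNF EV 1, and those in BDNF against control were 5 to 7 higher and 2 to 4 lower. Over all genes, 17346 to 17881 were tested in these fits, and the main fit of BDNF against control called 1321 higher and 1101 lower. The calls were 489 and 354 without the batch term, 692 and 375 with batches a and b alone, and 852 and 596 without batch c. With 1 library left out they were 1027 to 1383 higher and 767 to 1137 lower. For BDNF EV against BDNF they were 260 to 706 and 444 to 962 with 1 library left out, and 333 and 537 without the batch term. BDNF EV against control gave 62 higher and 173 lower with the 2 groups alone and 42 and 114 with no filter, and BDNF EV against control EV 67 and 100 with no filter.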
